A study of Drosophila melanogaster with 20 samples.

Results

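The nuclear genes of respiratory complexes II to V were followed in dissected brains of Drosophila melanogaster, in wild-type flies and in flies null for miR-34, at 3 d and at 20 d of age. The genes were taken by symbol: probe sets with exactly 1 platform gene symbol that starts with Sdh, UQCR-, COX and a digit, or ATPsyn, with the probe set of highest mean signal for a gene with several. This gave 41 genes out of 11982 genes with such a probe set, from 46 probe sets. Complex II had 6 genes, complex III 5, complex IV 14 and complex V 14, and the assembly gene Sdhaf3 and the complex III gene UQCR-11 are described apart.

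The mitochondrial respiratory chain passes electrons from food to oxygen and pumps protons across the inner mitochondrial membrane, and ATP synthase uses the proton gradient to make ATP. Complex II (succinate dehydrogenase) also works in the TCA cycle, complex III hands electrons to cytochrome c, complex IV (cytochrome c oxidase) passes them to oxygen, and complex V is ATP synthase itself. Neurons draw most of their ATP from this system. Complexes III to V also hold subunits made from the mitochondrial genome, which carry no symbol of the rule and were not analysed here. In flies many subunits have a second gene copy, written with an L in the symbol, and such copies are known mostly from the testis.

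Total RNA of each sample was biotin-labelled and hybridised to 1 Affymetrix Drosophila 2 array. The wild-type flies carry the line label 5905 and the miR-34 null flies the line label 0110. Both were kept at the same temperature on cornmeal molasses medium and left to age naturally, and each genotype was sampled at 3 d and at 20 d, with 5 arrays in each of the 4 groups. Below, young stands for 3 d and old for 20 d. The labels give 1 line for each genotype, so the loss of miR-34 and other differences between the lines cannot be told apart. MicroRNAs such as miR-34 are short RNAs that repress messenger RNAs. No probe set for miR-34 itself was listed, so the null genotype was not checked here. Sex, and whether the 5 samples of a group came from separate flies, are not given in the sources used here, so p-values measure only how these samples scatter, a scatter that may be technical.

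Arrays of 1 group correlated at r from 0.989 to 0.997 over the 9806 probe sets tested. Every array had the same trimmed mean of 150 units (2% trimmed at each end), so a change is relative to the rest of the array. The 12 neuronal markers, which include elav, nSyb and brp, were all tested and summed to 10311 to 13932 units, and the 7 glial markers, which include repo and alrm, to 6925 to 9007 units, so markers of both brain cell types were present in every group. Markers of other tissues moved between groups. The summed signal of 14 digestive tract markers was 162 to 180.0 units in young wild type, 95.8 to 109.7 in old wild type, 2515 to 2566 in young null and 111 to 142 in old null. Of these, Jon66Ci, Jon25Bi, Jon25Bii and Jon66Cii stayed at or below 20 units on every array. The 15 muscle markers summed to 954 to 989 units in young wild type, 1104 to 1186 in old wild type, 1871 to 1949 in young null and 1362 to 1397 in old null, with only sls at or below 20 units throughout. Of 10 photoreceptor markers 6 were lower in null at 3 d, and 7 were lower and 1 higher at 20 d. Of 7 fat body markers tested 4 were lower and 1 higher in null at 3 d, and 6 were lower at 20 d, when the sum of the list was 2750.1 to 2978 units in null and 5030.1 to 5344 in wild type. Of all probe sets tested 18.4% were lower and 15.4% higher in null at 3 d, and 24.6% and 20.9% at 20 d. The part of these tissues in the results below was not tested.

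Of the 41 genes, 29 lay above the median of their array in at least 5 of the 20 arrays and were tested, and 26 of them did so on all 20 arrays. The other 3 passed through some groups only: COX4L through the 10 old arrays and 2 of young null, COX7AL through the 10 old arrays, and COX5BL through 3 arrays of young null and 2 of old null. Those 3 had to be higher in these groups than elsewhere to be tested, so they are described by their values. They are kept out of the counts below, except where a count is said to cover all 29 genes. A change is the difference of group means of log2(signal + 16), a scale that understates changes of dim probe sets, and it is called higher or lower at a Benjamini-Hochberg adjusted p under 0.05 in limma, adjusted over all 9806 probe sets. Leaving out Sdhaf3, UQCR-11 and the copy COX7AL2 from the 26 leaves 23 subunits, namely 3 of complex II, 3 of complex III, 7 of complex IV and 10 of complex V. This division was made by symbol after the values were seen. The 12 genes below the filter were the copies SdhAL, SdhBL, SdhCL, UQCR-11L, UQCR-14L, COX6AL, COX6AL2, COX6CL, ATPsynCF6L, ATPsynGL, ATPsynbetaL and ATPsynepsilonL. The highest signal of these 12 on any array was 21.9 units.

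The first question was how the complexes change as the wild-type brain ages. Between 3 d and 20 d, all 26 genes above the median on every array fell. Among all probe sets tested 24.8% fell and 30.7% rose, or 2436 and 3013, against 4787 and 1541 after centring each array on its median and 3182 and 2234 after quantile normalization. All 23 subunits fell, by 0.25 to 0.41 on the log2 scale with a median of -0.30, or by 15.7% to 25.0% of the mean signal. In all 23 the 5 arrays at 20 d lay below the 5 arrays at 3 d, as in 19.5% of all those tested. The median change was -0.28 in complex II, -0.32 in complex III, -0.29 in complex IV and -0.33 in complex V. In tissue samples of this kind fewer cells of a type and less RNA per cell cannot be told apart.

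Bright probe sets as a whole fell with age, and these 23 were bright, with a mean signal above that of 86.2% to 99.6% of the probe sets tested. They were therefore set beside the 1293 other probe sets with a mean signal of 688.1 to 2057 units, the range of the 23, a comparison added after the values were seen. Of those 1293, 56.4% fell with age in wild type, their groups were apart downward in 48.6%, and their median change was -0.14 with quartiles of -0.24 and -0.03. Each of the 23 subunits fell by more than the lower quartile of these probe sets, and 19 of the 23 did so with quantile normalization. The median of the 23 became -0.18 with quantile normalization and -0.46 with median centring, beside -0.03 and -0.29 for the 1293. Over all probe sets tested the median change was 0.02, and -0.05 and -0.14 under those settings. The 95th percentile of the array signals was 882 to 888 units in young wild type and 816 to 839 units in old wild type.

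**Figure D1:**
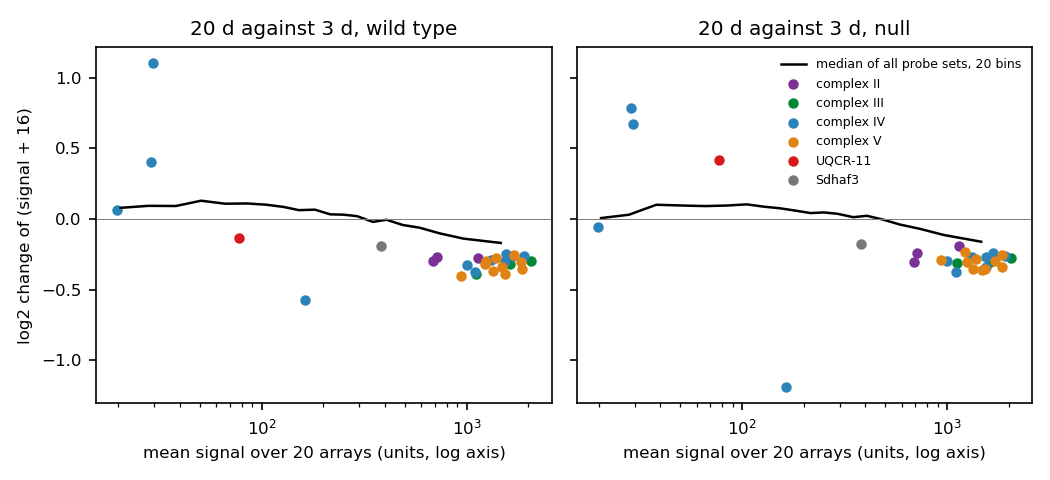
Change with age of log2(signal + 16) against the mean signal over 20 arrays (log axis), in wild type (left) and null (right). Points are the genes tested, coloured by complex, and the line joins the medians of all probe sets in 20 bins of signal. The line falls below 0 for the brightest bins, and the 23 subunits lie below it, while COX4L and COX7AL in both genotypes and UQCR-11 in null lie above it.

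The second question was whether the null brain ages in the same way. In null, 25 of the 26 genes fell and UQCR-11 rose, against 26% and 32% of all probe sets tested. All 23 subunits fell again, with a median of -0.29 and a range from -0.38 to -0.19. The medians were -0.24 for complex II, -0.30 for complex III, -0.27 for complex IV and -0.30 for complex V. The 20 d arrays lay below the 3 d arrays in 13 of the 23, against 16.4% of all probe sets tested. In the 1293 probe sets of like signal 52% fell, 29.3% had groups apart downward, and the median was -0.12 with a lower quartile of -0.22, which 22 of the 23 subunits passed and SdhD did not. With quantile normalization the median of the 23 in null was -0.17, beside -0.02 for the 1293, and 19 passed the lower quartile.

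The genotype by age interaction, which is the change in null less the change in wild type, was called for none of the 23 subunits, and none had an unadjusted p under 0.05 in limma, while 2760 of the 9806 probe sets tested did. The differences ran from -0.04 to 0.12, with standard errors of 0.043 to 0.093, so a difference of about the size of the largest could not be told from 0. After centring each array on its median, which moved the median difference of all probe sets from 0.01 to 0.13, the interaction was called higher for 4 of the 23, SdhD, COX8, ATPsyndelta and ATPsynE. Of the 26 genes, UQCR-11 had a higher and COX7AL2 a lower interaction, against 7.61% and 9.38% of all probe sets tested, or 746 and 920, which became 2623 and 556 after median centring.

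**Figure D2:**
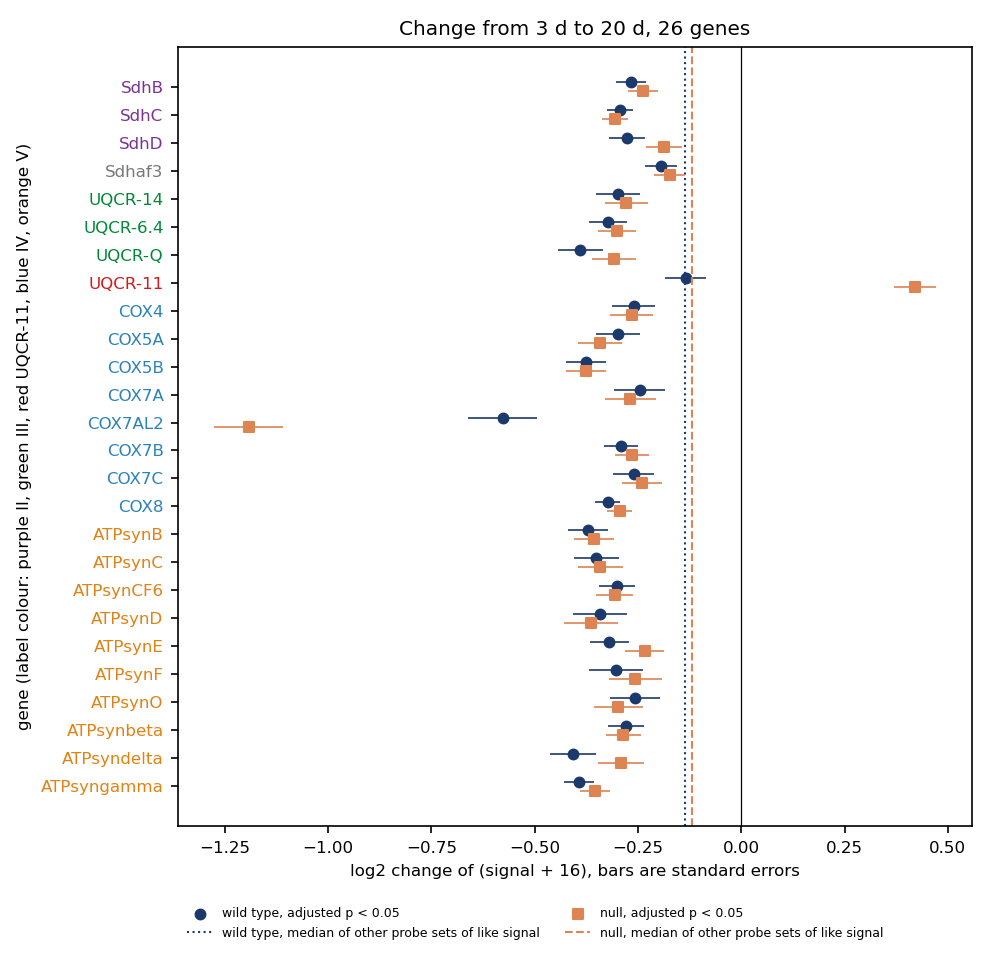
Change with age of log2(signal + 16) with its standard error for the 26 genes above the median on all 20 arrays, in wild type and in null, and the median of the other probe sets of like signal in each genotype (vertical lines). All 23 subunits lie below both lines, COX7AL2 lies farthest to the left, and UQCR-11 is the only gene of the 26 to the right of 0, in null alone.

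Complex II is the smallest of the 4, and all 3 of its tested subunits fell with age in both genotypes. The rule gave no probe set for SdhA, of which SdhAL is a copy, so complex II was not measured in full. SdhB encodes the iron-sulphur subunit. Its signals were 826, 733, 776, 798 and 806 in young wild type and 675, 629, 640.2, 650.2 and 663 in old wild type. In null they were 768, 814, 789, 754 and 728 at 3 d and 679.8, 621, 632, 663 and 660.5 at 20 d. The ages did not overlap in either genotype, and the genotypes overlapped at both ages, with changes with age of -0.27 ± 0.037 (SE) in wild type and -0.24 ± 0.037 in null.

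SdhC and SdhD encode the subunits that anchor the enzyme in the membrane. SdhC gave 756, 779, 784, 763 and 771 units in young wild type, 632, 621, 621, 646 and 607 in old wild type, 708, 763, 764, 785 and 739 in young null and 606, 613, 627, 607 and 570.3 in old null. Again the ages were apart in both genotypes (-0.29 ± 0.032 and -0.31 ± 0.032) and the genotypes overlapped. SdhD read 1236, 1323, 1348, 1200.4 and 1319 in young wild type and 1096, 1109, 963, 1105 and 1020.3 in old wild type. Its values in null were 1168, 1239, 1213, 1130.2 and 1177 at 3 d and 1067, 1068, 969, 1021 and 1071 at 20 d. The fall of SdhD was -0.28 ± 0.044 in wild type and -0.19 ± 0.044 in null, and the latter was -0.07 with an adjusted p of 0.165 after quantile normalization.

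SdhD was called lower in null at 3 d, by -0.11 ± 0.044 (adjusted p = 0.0488, limma), although the arrays of the genotypes overlapped. That call was lost, at values from -0.12 to -0.10, without replicate 2, 3 or 5 of young wild type, 1, 3, 4 or 5 of young null, 1, 2, 4 or 5 of old wild type, or 2 or 4 of old null, and with no filter on dim probe sets (adjusted p = 0.0716), with only probe sets above the median on all arrays (0.0512) or with plain eBayes (0.0607). Sdhaf3, which encodes an assembly factor of complex II and not a subunit, was lower in null at both ages. It measured 432, 427, 418, 464 and 399 in young wild type and 375, 379, 380.5, 390.0 and 409 in young null, a change of -0.14 ± 0.038 (adjusted p = 0.00603) with 1 null array inside the wild-type range. At 20 d it measured 375, 374, 372, 367 and 369.6 in wild type and 329, 331, 332, 359 and 354 in null, apart and with a change of -0.12 ± 0.038 (adjusted p = 0.0133) that was -0.05 and not called after median centring (adjusted p = 0.439). With age it fell by 0.19 in wild type and by 0.17 in null, less than any complex II subunit in either genotype.

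Complex III, the cytochrome bc1 complex, was measured through 3 small accessory subunits besides UQCR-11, and all 3 fell with age. UQCR-14 gave 2206, 2280.3, 2254, 2175 and 2287 units in young wild type and 1916, 1762, 1697, 1822 and 1906 in old wild type. In null its values were 2455, 2423, 2249, 2309 and 2001 at 3 d and 2085, 1826, 1757, 1920.2 and 1819.8 at 20 d. The ages were apart in wild type and overlapped in null, where the lowest 3 d array, 2001 units in replicate 5, lay below the highest 20 d array, 2085 units, and the changes with age were -0.30 ± 0.052 and -0.28 ± 0.052.

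UQCR-6.4 measured 1769, 1754, 1794, 1712 and 1744 in young wild type, 1433, 1375, 1336, 1396 and 1463 in old wild type, 1917, 1923.5, 1789.6, 1926 and 1668 in young null and 1656, 1469.5, 1423, 1533 and 1389 in old null. The ages were apart in both genotypes, and the difference of null from wild type was 0.07 ± 0.046 at 3 d and 0.09 ± 0.046 at 20 d (adjusted p = 0.271 and 0.119). UQCR-Q gave 1293, 1162, 1265, 1187 and 1348 in young wild type and 982, 1073, 859, 937 and 910.2 in old wild type. For null the values were 1231, 1355, 1204, 1299.9 and 1156 at 3 d and 1005, 997, 938, 1048 and 1036 at 20 d. It had the largest fall of complex III in wild type, -0.39 ± 0.054, and fell by 0.31 in null, with a difference between the 2 changes of 0.08 ± 0.077 (adjusted p = 0.549).

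UQCR-11 went another way from the other 3 complex III genes tested, and was dimmer, with a mean of 77.2 units against 1114 to 2057. Its probe set, for a gene on chromosome 3L, read 84.7, 77.8, 85.7, 85.8 and 83 units in young wild type and 66, 67.6, 63.6, 56.3 and 57.5 in young null. At 20 d it read 70.9, 82.2, 76.7, 73.6 and 69.6 in wild type and 88.4, 87.5, 93.3, 88.7 and 84.8 in null. All 5 null arrays were below all 5 wild-type arrays at 3 d and above them at 20 d. Of all probe sets tested 12.8% were apart downward at 3 d, and 15.3% were apart upward at 20 d. The genotype difference was -0.35 ± 0.050 at 3 d (adjusted p = 5.69e-06), or -25.4% in mean signal, and 0.21 ± 0.050 at 20 d (adjusted p = 0.00154), or 18.7%.

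With age UQCR-11 rose in null by 0.42 ± 0.050 (adjusted p = 1.67e-07), with the ages apart, from a mean of 62.2 ± 5.04 (SD, n = 5) to 88.5 ± 3.07 units. In wild type it went from 83.4 ± 3.31 to 74.6 ± 5.05 units with overlapping arrays, a change of -0.13 ± 0.050 (adjusted p = 0.0261). That last call was lost without wild type replicate 1 at 20 d (adjusted p = 0.0634), replicate 5 at 20 d (0.0739), replicate 3 at 3 d (0.0546) or replicate 4 at 3 d (0.0538). The interaction was 0.56 ± 0.071 (adjusted p = 2.03e-06) and ranged from 0.53 to 0.59 when 1 array was left out. Probe sets of signal near that of UQCR-11 rose with age, unlike the bright ones. In the bins with median signals of 66.2 and 85.0 units the median change was 0.11 in wild type, and 0.09 and 0.10 in null, with a median interaction of -0.03. The order of the 4 groups was young null lowest, then old wild type, young wild type and old null, and young null overlapped none of the others, while young wild type overlapped both old wild type and old null. UQCR-14L and UQCR-11L, the copies of complex III genes, stayed at or below 3.38 and 21.9 units.

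The genes whose log2 signal followed UQCR-11 most closely over the 20 arrays were CG14275 (Pearson's r = 0.90), CG11211 (0.89) and CG5381 (0.87), a description over arrays that fall into 4 groups. CG14275 had mean signals of 145 units in young wild type, 113 in old wild type, 73.1 in young null and 189.6 in old null. All 3 were lowest in young null and highest in old null, as UQCR-11 was, a likeness that follows from how they were picked.

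**Figure D3:**
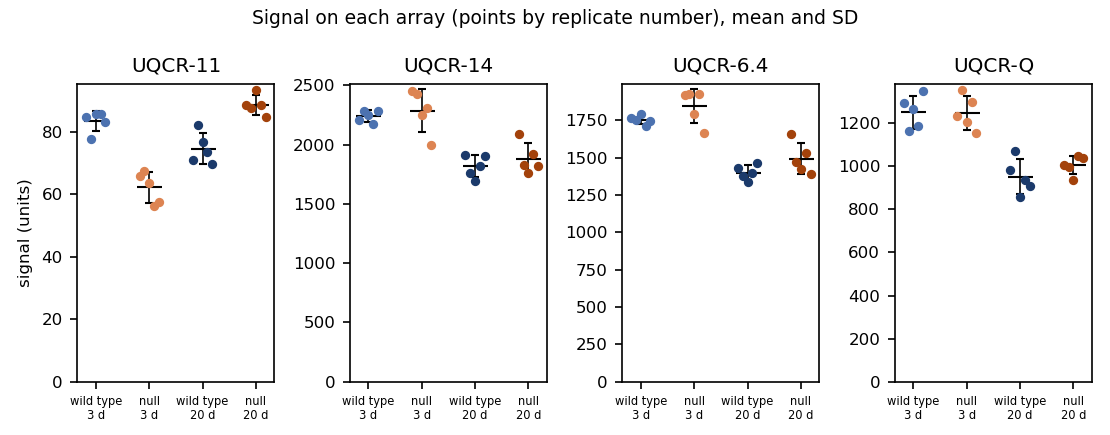
Signal of the 4 tested complex III genes on each array, points by replicate number, with the mean and SD of each group of 5. UQCR-14, UQCR-6.4 and UQCR-Q are lower at 20 d in both genotypes, and UQCR-11 is lowest in young null and highest in old null.

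Complex IV is built around a core made from mitochondrial genes, and COX4, COX5A, COX5B, COX7A, COX7B, COX7C and COX8 encode nuclear subunits that surround it. All 7 fell with age, by 0.25 to 0.38 in wild type and by 0.24 to 0.38 in null, and none was called between the genotypes at either age with the probe set of highest signal. After median centring COX7B and COX8 were called higher in null at 20 d. COX5B fell most, with signals of 1269, 1239, 1256, 1255 and 1273 in young wild type and 993, 958, 946, 952 and 979 in old wild type. In null it gave 1299, 1351, 1259, 1232 and 1062 at 3 d and 1054, 923, 914, 938 and 924 at 20 d. The ages were apart in both genotypes, although young null replicate 5, at 1062 units, came close to old null replicate 1, at 1054, and the changes were -0.38 ± 0.049 and -0.38 ± 0.049.

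COX5A measured 1710.1, 1616, 1706, 1659 and 1757 in young wild type and 1479, 1359, 1325, 1319 and 1376 in old wild type. In null it measured 1839, 1842, 1729, 1774 and 1534 at 3 d and 1555, 1308, 1288, 1415 and 1294 at 20 d. It fell by 0.30 and 0.34 with ages that overlapped in null, and its genotype difference at 20 d was -0.0022 ± 0.053. COX7A gave 1695, 1624, 1666, 1699 and 1684 in young wild type, 1564, 1355, 1308, 1414 and 1412 in old wild type, 1869, 1820.0, 1652, 1694 and 1462 in young null and 1607, 1342, 1313, 1445 and 1329 in old null. Its fall was the smallest of the 23 in wild type, -0.25 ± 0.061, and was -0.27 ± 0.061 in null. The other 4 went from means of 2055 to 1713 units (COX4), 1431 to 1168 (COX7B), 1796 to 1497 (COX7C) and 1099.6 to 875 (COX8) in wild type. A second probe set of COX7B also fell, by 0.37 and 0.27, but was called higher in null at 20 d by 0.13 (adjusted p = 0.00384) where the first gave 0.06.

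Of the 7 copies of complex IV genes 4 were bright enough to be tested, and 1 of these on all arrays. COX7AL2, a copy of COX7A on chromosome 2L whose probe set is of the Affymetrix type that can match several transcripts, read 161, 200.001, 194.5, 203 and 171 units in young wild type and 127, 141, 112, 89.7 and 131 in old wild type. In null it read 228, 242, 259, 249 and 256 at 3 d and 86.4, 96.9, 109, 103 and 100.9 at 20 d. Null was above wild type on every array at 3 d (0.38 ± 0.084, adjusted p = 0.000855), and at 20 d it was lower with overlapping arrays (-0.23 ± 0.084, adjusted p = 0.0277). That 20 d call was lost with either other normalization (adjusted p = 0.0823 with quantile normalization and 0.113 with median centring), with only the groups compared in the fit (0.0576), and without replicate 1 (-0.21), 2 (-0.18) or 5 (-0.20) of old wild type or replicate 1 (-0.19) or 2 (-0.22) of old null. Beside its higher level in young null, the 9 tested digestive tract markers were higher there by a median of 2.64. Several of them, such as Jon99Fi (mean 533 units in young null and 1.06 in young wild type), passed the filter through young null, so this is a description. Of 14 tested muscle markers 13 were higher in young null, by a median of 0.72, where 15.4% of all probe sets tested were. The part of these markers in the result was not tested. The fall of COX7AL2 with age was -0.58 ± 0.084 in wild type and -1.19 ± 0.084 in null, and the interaction was -0.61 ± 0.12 (adjusted p = 0.000474).

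COX7AL, another copy of COX7A on chromosome 3R, had higher signals at 20 d, the age through which it passed the filter, so its change with age is given as a description. Its signals were 10.3, 12, 12.6, 13.9 and 11.5 in young wild type and 37.7, 43.8, 54.9, 42.4 and 43.9 in old wild type. In null they were 20.4, 19.4, 17.8, 18.6 and 21.5 at 3 d and 36.1, 43.9, 30.3, 38.2 and 58.5 at 20 d. It was higher in null at 3 d (0.34 ± 0.091, adjusted p = 0.00498) with no overlap, and its change with age was 1.10 ± 0.091 in wild type and 0.67 ± 0.091 in null. At 20 d the genotypes overlapped, and the difference of -0.09 ± 0.091 (adjusted p = 0.449) was called lower, at -0.19, only without replicate 5 of old null. The interaction of -0.43 ± 0.13, the change with age in null less that in wild type, is likewise a description. Its call in the fit was not kept with quantile normalization or with median centring.

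COX4L, a copy of COX4, passed the filter through all 10 old arrays and 2 of young null, so its change with age is also a description. It read 18, 20.3, 16.7, 18.3 and 19.7 in young wild type and 27.8, 27.4, 31.7, 34.4 and 28.4 in old wild type, and 16.4, 18.5, 20.3, 23.7 and 21.9 in young null and 41.1, 41.6, 45.1, 44.7 and 60.1 in old null. The ages were apart in both genotypes, and all old null arrays lay above all old wild-type arrays, a genotype difference of 0.44 ± 0.072 (adjusted p = 2.42e-05) against 0.06 ± 0.072 at 3 d. Its change with age was 0.41 ± 0.072 in wild type and 0.78 ± 0.072 in null. The interaction of 0.38 ± 0.10, the difference of these 2 changes, is likewise a description.

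COX5BL, a copy of COX5B on chromosome 2L, passed the filter through only 5 arrays, all of null, so its difference between the genotypes is a description with no test. It gave 12.8, 18.8, 14.6, 15.8 and 15.4 in young wild type and 16.8, 14.1, 17.4, 16 and 20.2 in old wild type, and 24.6, 21, 30.1, 19.8 and 24.9 in young null and 21.3, 21.9, 19.3, 24.1 and 25.6 in old null. Null lay above wild type at 3 d, with no overlap, by 0.35 ± 0.070, and the difference at 20 d was 0.22 ± 0.070, with overlap. Its change with age was 0.06 in wild type and -0.06 in null (adjusted p = 0.459 and 0.505, not called). These signals of 12.8 to 30.1 units are close to the array medians of 19.1 to 25.0 units. As these copies are known mostly from the testis, 12 testis markers were read as well, and 10 of the 12 stayed at or below 20 units on every array. Their summed signal was 76.9 to 84.0 units in young wild type, 79.0 to 100.1 in old wild type, 65.1 to 79.8 in young null and 72.6 to 77.9 in old null.

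**Figure D4:**
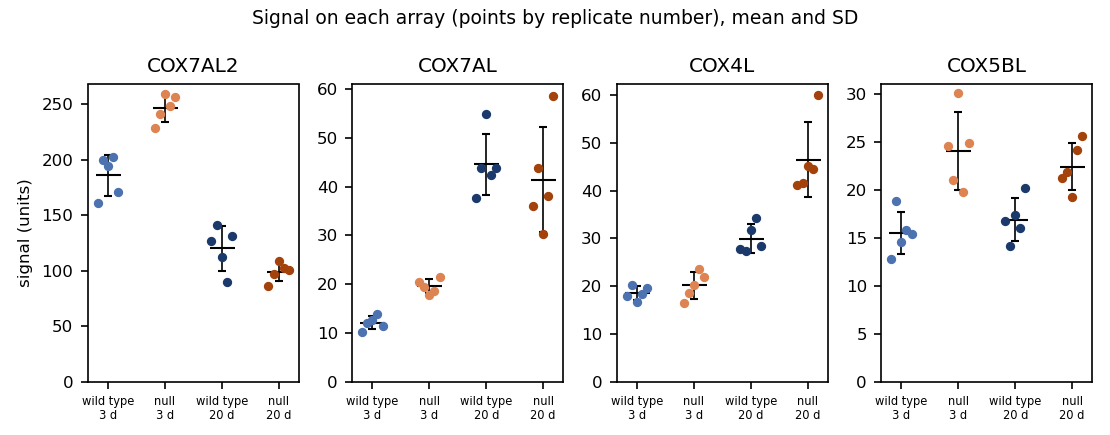
Signal of the complex IV gene copies COX7AL2, COX7AL, COX4L and COX5BL on each array, points by replicate number, with the mean and SD of each group of 5. At 20 d the signals of COX7AL2 lie lower and those of COX7AL and COX4L higher than at 3 d in both genotypes, and those of COX5BL lie higher in null than in wild type at 3 d.

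Complex V, ATP synthase, had 10 tested subunits, and all 10 fell with age in both genotypes. ATPsynbeta encodes the catalytic subunit and ATPsyngamma the central stalk that turns inside it. Their means fell from 1509 to 1241 units and from 1696 to 1289 units in wild type, changes of -0.28 ± 0.042 and -0.39 ± 0.036, and by 0.29 and 0.35 in null. A second probe set of each gene fell in both genotypes as well. As for COX7AL2, the probe sets of ATPsynC, ATPsynD, ATPsynE and ATPsynF are of the type that can match several transcripts. So is the second probe set of ATPsyngamma.

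ATPsyndelta, also of the central stalk, had the largest fall of the 23 in wild type, with signals of 1096, 987, 972, 1029 and 1083 at 3 d and 831, 763, 768, 735 and 778 at 20 d. In null it gave 1106, 1081, 1134, 1074 and 949 at 3 d and 864, 774, 842, 888 and 990.2 at 20 d. Its ages were apart in wild type and overlapped in null through 20 d replicate 5 and 3 d replicate 5, and it fell by 0.41 in wild type and 0.29 in null.

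ATPsynO, ATPsynB, ATPsynD and ATPsynCF6 encode the peripheral stalk, which holds the catalytic head still. ATPsynO read 1894, 1859, 1824, 1818 and 1913 in young wild type and 1686, 1537, 1521, 1468 and 1574 in old wild type. Its null signals were 1992, 2061, 1886, 1904 and 1557 at 3 d and 1706, 1408, 1443, 1544 and 1515 at 20 d. The changes with age were -0.26 ± 0.060 in wild type, with ages apart, and -0.30 ± 0.060 in null, with overlap. ATPsynD read 1654, 1590.5, 1704, 1602 and 1734 in young wild type, 1375, 1255, 1248, 1259 and 1383 in old wild type, 1847, 1845, 1688, 1659 and 1369 in young null and 1476, 1198, 1250.0, 1289 and 1285 in old null. It fell by 0.34 and 0.36, with young null replicate 5 inside the range of the old null arrays. Neither gene was called between the genotypes at either age.

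ATPsynB and ATPsynCF6 were higher in null at both ages. ATPsynB gave 1455, 1418, 1389, 1384 and 1444 units in young wild type and 1700.4, 1686, 1549, 1645 and 1444 in young null. At 20 d it gave 1084, 1085, 1065, 1130.0 and 1098 in wild type and 1414, 1149, 1214, 1279.6 and 1196 in null. The genotypes overlapped at 3 d only through null replicate 5 and were apart at 20 d, with differences of 0.17 ± 0.048 (adjusted p = 0.00657) and 0.19 ± 0.048 (adjusted p = 0.00251).

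ATPsynCF6 measured 1286, 1277, 1283, 1304 and 1323 in young wild type and 1577, 1505, 1452, 1481 and 1312 in young null, and 1109, 1037, 1007, 1033 and 1057 and 1302, 1164, 1147, 1177 and 1116 at 20 d. It overlapped between genotypes at 3 d through null replicate 5 alone and was apart at 20 d, with differences of 0.17 ± 0.044 (adjusted p = 0.00345) and 0.17 ± 0.044 (adjusted p = 0.00329). The 3 d calls of both genes were lost with median centring (adjusted p = 0.0833 for ATPsynB and 0.0588 for ATPsynCF6). ATPsynC, which forms the proton-driven ring, had a 3 d difference of 0.08 ± 0.054 (adjusted p = 0.276) that was called, at 0.14, without null replicate 5.

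ATPsynE and ATPsynF belong to the membrane part. ATPsynE read 1411, 1346, 1327, 1349 and 1313 in young wild type and 1138, 1055, 1015, 1083 and 1101 in old wild type. In null it read 1365, 1386, 1337, 1381 and 1222 at 3 d and 1274, 1126, 1113, 1138 and 1033 at 20 d. It had the smallest fall of complex V in null, -0.23 ± 0.047, against -0.32 ± 0.047 in wild type, and the difference of 0.09 ± 0.066 was not called (adjusted p = 0.444). ATPsynF fell from a mean of 1994 to 1615 units in wild type and from 2066 to 1725 in null.

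The remaining question was how null and wild type differ at each age. At 3 d, 3 of the 26 genes were higher in null, COX7AL2, ATPsynB and ATPsynCF6, and 3 were lower, SdhD, Sdhaf3 and UQCR-11. Among all probe sets tested 15.4% were higher and 18.4% lower, or 1513 and 1806, against 1083 and 2595 after median centring. The 23 subunits had a median difference of 0.03 at 3 d, beside 0.01 for the 1293 probe sets of like signal, and both turned to -0.02 and -0.04 after median centring. Without young null replicate 5 ATPsynC was called higher as well.

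At 20 d, 5 of the 26 genes were higher in null, UQCR-11, ATPsynB, ATPsynCF6, ATPsyndelta and ATPsyngamma, and 2 were lower, COX7AL2 and Sdhaf3, against 20.9% and 24.6% of all probe sets tested. Of the 23 subunits 4 were higher, all of complex V, and none was lower, where 20.1% of the 1293 probe sets of like signal were higher. The difference was 0.16 ± 0.055 for ATPsyndelta (adjusted p = 0.0193) and 0.10 ± 0.036 for ATPsyngamma (adjusted p = 0.0354), with overlapping arrays for both. The ATPsyngamma call was lost, at 0.08 to 0.10, without replicate 1, 2, 3 or 4 of old null or replicate 2 or 3 of old wild type, and with its second probe set (0.09, adjusted p = 0.12) or only the groups compared in the fit (adjusted p = 0.0624). That of ATPsyndelta was lost without replicate 4 of old wild type (0.14) or replicate 5 of old null (0.12). After median centring 13 of all 29 genes tested were higher and none was lower, while the calls over all probe sets went from 2051 higher and 2410 lower to 3066 and 1509. Fat body and photoreceptor markers were lower in null at this age, as given above, and their part in these differences was not tested. The log2 ratio of 3' to 5' signal of the control transcripts differed between the genotypes at 20 d by up to 0.123. Shares of calls among the members at both ages were near or below those of all probe sets, and the median difference of the 23 subunits at 20 d, 0.06, stood beside 0.02 for the probe sets of like signal, or 0.13 beside 0.10 after median centring.

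**Figure D5:**
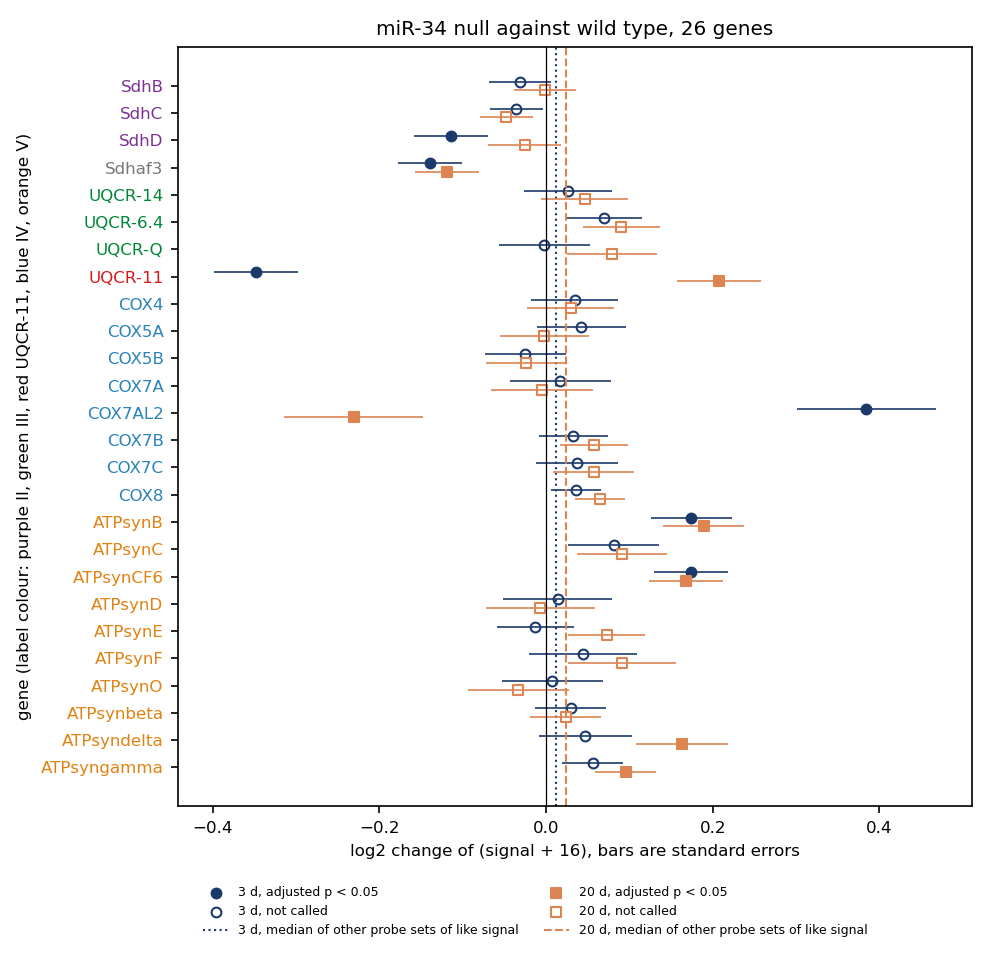
Difference of null from wild type in log2(signal + 16) with its standard error for the 26 genes above the median on all 20 arrays, at 3 d and at 20 d. Most of the subunits lie close to 0, UQCR-11 changes side from -0.35 to 0.21, COX7AL2 from 0.38 to -0.23, and ATPsynB and ATPsynCF6 lie between 0.17 and 0.19 at both ages.

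In complexes III, IV and V the arrays ranged more widely in null than in wild type at both ages, and in complex II at 3 d alone. Taken as the mean log2 signal of its subunits relative to the mean of young wild type, complex V ran from -0.02 to 0.02 on the young wild-type arrays, from -0.39 to -0.27 at 20 d in wild type, from -0.12 to 0.15 at 3 d in null and from -0.31 to -0.12 at 20 d in null. Replicate 5 of young null was the lowest of its group in all 4 complexes, at -0.10 in complex II, -0.11 in complex III, -0.12 in complex IV and -0.12 in complex V. Complex IV ran from -0.02 to 0.04 in young wild type and from -0.12 to 0.11 in young null. Without that replicate 25 genes fell with age in null, the same number as with it.

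Other parts of the system fell with age too. Of 8 tested genes for other subunits of complexes II to V and cytochrome c, which carry other names, all 8 fell in wild type and 7 in null, among them ox (complex III, -0.40 and -0.38), RFeSP (the Rieske iron-sulphur protein of complex III, -0.34 and -0.33) and blw (the alpha subunit of ATP synthase, -0.34 and -0.33). The exception in null was sun, an ATP synthase subunit, at -0.06. In complex I 25 of 26 genes fell and 1 rose in each genotype, with a median of -0.29 in both. Of 69 mitochondrial ribosomal protein genes 58 fell in wild type and 47 in null, with medians of -0.22 and -0.18, and of 8 TCA cycle genes 6 fell and 1 rose in each genotype.

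Assembly factors were less uniform. Of 12 tested, 8 fell and 1 rose in wild type, and 7 fell in null, where 24.8% and 26% of all probe sets tested fell. Between the genotypes 2 were higher and 5 lower in null at 3 d, where 15.4% and 18.4% of all probe sets were. At 20 d 1 was higher and 3 were lower, against 20.9% and 24.6%, with differences from -0.59 to 0.37. Surf1, needed for complex IV assembly, was higher in null by 0.56 at 3 d and 0.37 at 20 d, and Sirup, an assembly factor of complex II as Sdhaf3 is, was lower by 0.22 and 0.42. Sirup was not the lowest at 20 d, as another assembly factor stood at -0.59. The interaction was called higher for 2 and lower for 3 of the 12, with values from -0.54 to 0.23, against 7.61% and 9.38% of all probe sets tested. Among 9 glycolysis genes 5 fell and 1 rose with age in each genotype, beside the same shares of 24.8% and 26% falling, with medians of -0.12 and -0.14. These lists, like the members, were chosen with results of these data known.

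Neuronal markers fell beside the complexes, with 9 of 12 lower in each genotype and medians of -0.28 in wild type and -0.25 in null. Over all probe sets tested 24.8% fell in wild type and 26% in null. Several of the 12 were as bright as the subunits, such as Snap25 (mean 1660 units in young wild type), and 56.4% and 52% of the 1293 probe sets in that band fell. The summed signal of the neuronal markers was 12635 to 13210 units in young wild type, 10311 to 11021 in old wild type, 12307 to 13932 in young null and 10421 to 12139 in old null. None of the 12 stayed at or below 20 units. Of 7 glial markers 3 fell and 2 rose in wild type, and 3 fell and 1 rose in null. The glial sum was 8197 to 8572 units in young wild type, 7016 to 7662 in old wild type, 8109 to 9007 in young null and 6925 to 7565 in old null. Fat body markers rose, all 7 tested in wild type (median 0.77) and 4 of 7 in null, while 1 fell in null. Of 11 haemocyte markers 8 rose and 2 fell in wild type, and 9 rose and 2 fell in null, where 30.7% and 32% of all probe sets tested rose. The part of cell content in the fall of the subunits was not tested. The log2 ratio of 3' to 5' signal of the control transcripts differed between the ages by at most 0.093.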

How the data were processed

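Total RNA of dissected brains was labelled and hybridised by the authors to 20 Affymetrix Drosophila 2 arrays, 1 per sample, in 4 groups of 5. The deposited values are linear probe set intensity values (signal), described in the labels as MAS5 output, and the submitters' processing notes name MAS5 and GCRMA. Each array was already scaled to 1 trimmed mean.

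Here log2(signal + 16) was fitted with limma 3.58.1 in R 4.3.3 (lmFit, then eBayes with trend and robust options), with 4 group means and 5 contrasts, for the 9806 of 18769 probe sets that exceeded the median of their array on at least 5 arrays. P-values were adjusted by the Benjamini-Hochberg method over all of these in each contrast. The fit was tested on simulated data. Arrays carry no read depth, so their number, 5 per group, limits the precision.

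Of the probe sets 13647 had 1 gene symbol, 402 several and 4720 none. All 41 members matched a RefSeq gene, and 14 of the 29 tested overlap another gene there. Members and gene lists were chosen with earlier results of these data known, and the band of like signal was chosen after seeing the data. Every member is named, and array values are given for all tested complex II subunits, UQCR-11 and, in each complex, the genes of largest and smallest absolute change in any contrast. Of other lists, counts, medians and a few called genes of large change are given.

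Alternatives were other filters, pseudocounts and normalizations, plain eBayes, only the groups compared, the other probe set of a gene, the replicate number as a block, and leaving out each array.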

Additional observations from a re-analysis of the deposited data

Results flagged for a closer look

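In 4 of the 116 groups of 5 arrays of the 29 tested genes, 1 array stood apart from the other 4 by Dixon's test, and chance alone flags about 1 group in 20. COX4L was 60.1 units in replicate 5 of 20 d null against 41.1 to 45.1 in the others, COX5B was 1054 units in replicate 1 of 20 d null against 914 to 938, COX8 was 1038 units in replicate 1 of 3 d wild type against 1107 to 1130.5, and ATPsynE was 1222 units in replicate 5 of 3 d null against 1337 to 1386. The interaction term of the limma fit was called in 4 of the 29 genes, against 17% of all probe sets tested. It was 0.56 for UQCR-11, 0.38 for COX4L, -0.43 for COX7AL and -0.61 for COX7AL2. Groups of these 4 genes overlapped between genotypes at 20 d for COX7AL and COX7AL2, were apart at both ages for UQCR-11, and were apart at 20 d alone for COX4L. COX4L and COX7AL passed the filter on dim probe sets through the 20 d groups, where they are high, so their interactions are descriptions only.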

How the results depend on the processing

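The fall of the 23 subunits with age held its direction under every alternative run, and all 23 stayed called except SdhD in null with quantile normalization. Its size moved with the normalization. The median went from -0.30 to -0.18 with quantile normalization and -0.46 with median centring in wild type, and from -0.29 to -0.17 and -0.33 in null, while the median of probe sets of like signal went from -0.14 to -0.03 and -0.29 in wild type and from -0.12 to -0.02 and -0.16 in null. Counts in this paragraph are over all 29 genes tested, which include COX4L, COX5BL and COX7AL. As fitted they were 5 higher at 3 d, 7 higher and 2 lower at 20 d, 2 higher with age in wild type, 3 higher with age in null, and 2 higher and 2 lower interactions. Over all probe sets tested 15.4% were higher at 3 d, and 20.9% higher and 24.6% lower at 20 d. With age 30.7% rose in wild type and 32% in null, and 7.61% and 9.38% had higher and lower interactions. Median centring gave 3 genes higher in null at 3 d, 13 higher and 0 lower at 20 d, and 6 higher and 1 lower interactions. Of all 9806 probe sets 1083 were then higher at 3 d, 3066 higher and 1509 lower at 20 d, and 2623 and 556 had higher and lower interactions. It also turned the 20 d difference of complex II from -0.03 to 0.046, with no member of complex II called at 20 d in the fit as reported. Quantile normalization and the fit of only the groups compared each left 1 gene lower at 20 d, beside 2207 and 2350 of all probe sets. Quantile normalization left 1 lower interaction, beside 907. Testing only probe sets above the median on all 20 arrays, which leaves out COX4L, COX5BL and COX7AL, gave 3 genes higher at 3 d, 0 higher with age in wild type, 1 higher with age in null, and 1 higher and 1 lower interaction. Of the 8653 probe sets in that test 1201 were higher at 3 d, 2536 rose in wild type and 2745 in null, and 590 and 638 had higher and lower interactions. With no filter 5 genes rose with age in null, beside 3704 of 18769 probe sets. Leaving out 1 array gave 1 to 3 genes lower at 20 d, 25 to 26 lower with age in wild type, and a change of UQCR-11 with age in wild type of -0.16 to -0.11. The cause of these shifts was not tested. The replicate block changed no count of calls among the members (26 lower with age in wild type, and a UQCR-11 interaction of 0.56 with adjusted p = 4.91e-06 in limma). The samples share only a number. In deviations from the group means, 16 of 30 same-numbered pairs correlated above 0.1 (range -0.18 to 0.55). Their median was 0.11, beside -0.03 for pairs of different number, and 3 of 20 arrays correlated best with their own number in every other group. The signals of COX4L, COX5BL and COX7AL lie near the array median, which limits their precision.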
